A study of Macaca fascicularis with 28 samples.

Results

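Adenosine deaminase (ADA) and 8 further enzymes that recycle or break down purines were followed through 28 samples of tongue tissue from the cynomolgus macaque (Macaca fascicularis), measured on the Affymetrix Rhesus Macaque Genome Array. The genes were listed by name, and the list was chosen by the measured intensity of ADA, which is bright in lingual epithelium (LE) and much dimmer in taste buds (TB). The difference of ADA between TB and LE is therefore described below with no test. A probe set, a group of short probes that reports 1 transcript, counted as a member when its gene name was on the list. This gave 16 probe sets of 8 genes among 52024 probe sets and 14873 genes with a symbol, since no probe set was named for DCK, the deoxycytidine kinase, which is not analysed here.

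The samples were areas of tongue cut by laser capture microdissection (LCM), pooled over many sections, from tissue taken post-mortem, and the labels name no experimental treatment. The first array set held 20 samples from 6 animals (4 females and 2 males, 2.6 to 4.5 years old): TB of fungiform (FG) papillae on the anterior tongue and LE around them from animals 1 to 6, and TB of circumvallate (CV) papillae on the posterior tongue and LE around them from animals 1, 3, 4 and 5 (2 females and 2 males). The second array set held 8 samples from 4 other animals (3 females and 1 male, all 3 years old), a top and a bottom fraction of CV TB from each of animals 7 to 10. The fractions differ from the whole TB and from LE in both animals and array set, which cannot be told apart, so their levels are given beside the others and tested only against each other. Every sample is bulk tissue, in which fewer cells of a type and less RNA per cell cannot be told apart.

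Adenosine arises when extracellular ATP, a transmitter released by taste cells, is stripped of its phosphates, and also inside cells from AMP. ADA deaminates adenosine to inosine, whereas adenosine kinase (ADK) returns adenosine to AMP. The AMP deaminases AMPD1, AMPD2 and AMPD3 turn AMP into IMP. Xanthine dehydrogenase (XDH) carries out the last steps of purine breakdown, from hypoxanthine to xanthine and uric acid. Hypoxanthine phosphoribosyltransferase (HPRT1) and adenine phosphoribosyltransferase (APRT) work the other way, and save free purine bases as nucleotides.

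The deposited values are GC-RMA intensities, a linear scale of probe brightness after background correction and quantile normalization. Array medians lay between 13.57 and 16.75 units, and 37.3 to 40.8% of probe sets reached 25 units, the minimum used here for a measured signal. The 15 measured genes of a list of 17 differentiated keratinocyte markers had a mean log2 intensity of 11.13 to 12.30 in the LE samples, 5.94 to 7.11 in CV TB and 5.35 to 8.33 in FG TB. In each TB sample 8 to 12 of the 15 still reached 25 units, whereas IVL and CDSN stayed under 25 units in all of them. The 8 type II taste cell markers were at 8.39 to 9.95 in whole TB and 4.20 to 4.88 in LE. Levels of different probe sets are not compared, because probe sets differ in brightness for reasons other than abundance.

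ADA was bright in lingual epithelium at both sites and had a small part of that intensity in every TB sample. On the first of its 3 probe sets, the one brightest on average, the LE samples beside CV papillae read 13581, 15194, 13498 and 14248 units in animals 1, 3, 4 and 5. The 6 LE samples beside FG papillae lay between 12186 and 14520 units, with a median of 13215. The 10 LE samples thus lay close together.

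In CV TB the same probe set read 400.8, 66.7, 285.2 and 212.5 units in animals 1, 3, 4 and 5. In FG TB it ran from 140.3 to 1563 units, with a median of 365.4 and with animal 4 highest. The TB and LE groups were separated at both sites by a wide gap. All whole TB samples nevertheless exceeded 25 units, so that on this probe set ADA was dim but measurable in TB. The fitted change was -6.14 ± 0.65 (SE) on the log2 scale for CV TB against adjacent LE, a 70.3-fold difference of geometric means (n = 4 animals), and -5.17 ± 0.53 for FG TB, a 36.0-fold difference (n = 6 animals).

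The fractions of CV TB gave ADA levels in the range of the whole TB. The top fraction read 414.8, 389.5, 106.5 and 188.6 units in animals 7 to 10, and the bottom fraction 66.2, 142.0, 369.4 and 588.3. The fractions overlapped and 2 of 4 animals were higher in the top. Ordered by mean intensity, LE beside CV came first, then LE beside FG, FG TB, the bottom fraction, the top fraction and CV TB, and each pair of neighbours in this order overlapped except LE beside FG and FG TB.

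**Figure D1:**
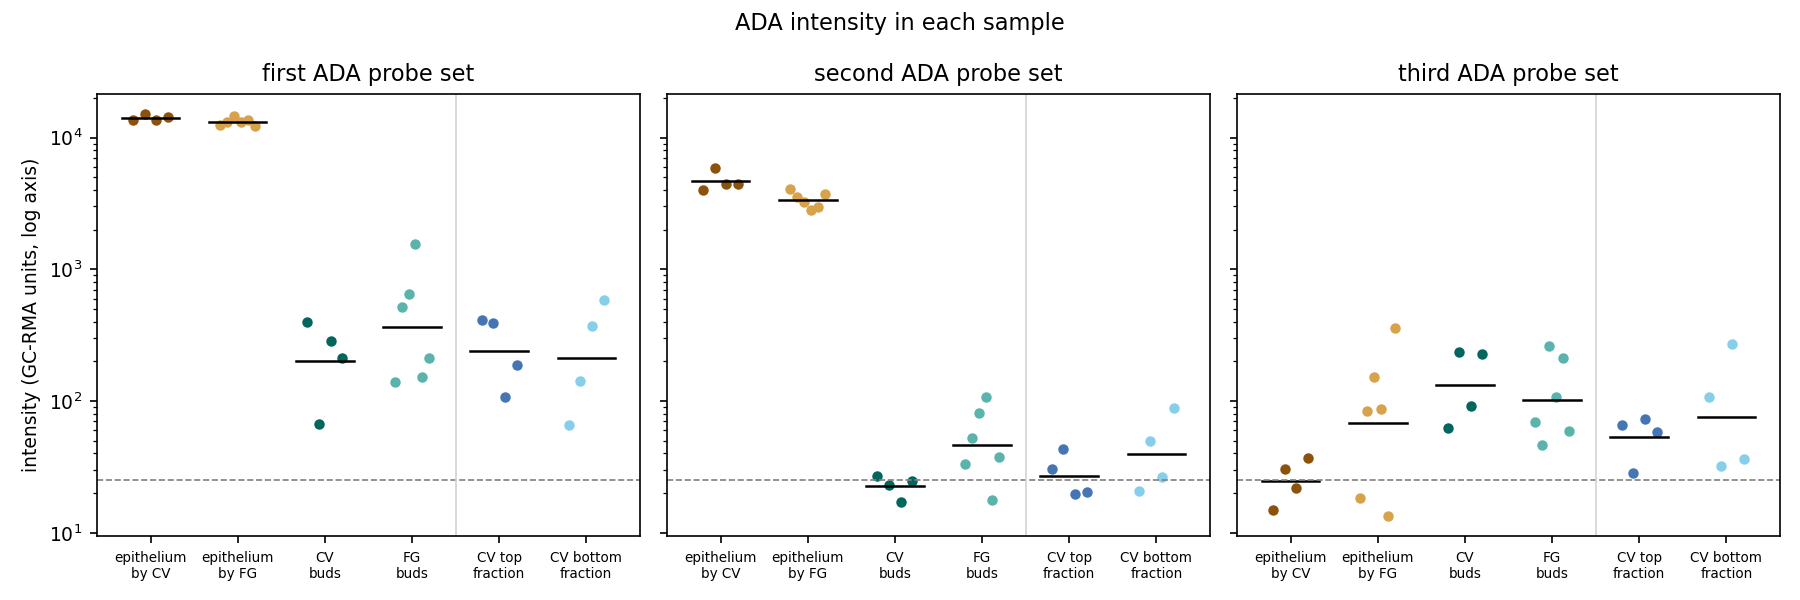
Intensity of the 3 ADA probe sets (GC-RMA units, log axis) in each sample of the 6 groups. Points are samples, black bars geometric means, the dashed line 25 units, and the vertical line divides the first array set from the second. On the first 2 probe sets every LE sample lies above every TB sample, and on the third one the order differs, with LE beside CV lowest.

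The second ADA probe set gave the same picture at a lower brightness. It read 4002 to 5922 units in LE beside CV, 2816 to 4083 in LE beside FG, 17.1 to 27.0 in CV TB and 17.7 to 107.3 in FG TB. Only 1 of 4 CV TB samples reached 25 units, and with values below 25 raised to 25 the difference was at least 182-fold at the CV. At the FG the ratio of geometric means was 68.3, an estimate and not a bound, since the ratio of arithmetic means was smaller. Log2 values of the first and second probe sets had a Pearson r of 0.97 over the 28 samples, which share animals and array sets.

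The remaining ADA probe set, the third plotted, did not follow. Its values were 14.9, 30.4, 21.7 and 37.2 units in LE beside CV against 62.1, 233.7, 92.1 and 226.9 in CV TB, higher in TB in 4 of 4 animals without overlap. In LE beside FG it spread from 13.4 to 356.7 units and overlapped FG TB, which lay between 46.7 and 259.6. Its r with the other probe sets was -0.39 and -0.36, so the description of ADA as an LE transcript rests on the first 2. Which transcript it reports was not tested.

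On the log2 scale ADA varied more among TB samples than among LE samples, and in whole TB it moved with the keratinocyte markers. Over the 10 whole TB samples (6 animals, 4 of which gave both sites) the log2 intensity of ADA and the mean log2 intensity of the 15 keratinocyte markers had a Pearson r of 0.92 and a Spearman rho of 0.90. Without the 2 samples farthest from the median keratinocyte level r was 0.79. FG TB of animal 4 had the highest value of both, 1563 units of ADA and 8.33 for the markers. Over the 10 LE samples, where ADA was nearly flat, r was 0.21 and rho 0.18, and r was -0.69 without the 2 farthest samples. In the top fractions the 2 did not run in the same order, since animal 9 had the highest marker mean (6.73) and the lowest ADA (106.5 units), while animal 7, with the highest ADA (414.8 units), was at 6.05. In the bottom fractions the marker means of animals 7 to 10 were 5.73, 6.14, 7.01 and 7.08, the order of their ADA values. The part of residual epithelium in the ADA signal of TB was not tested.

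The genes whose log2 pattern over all 28 samples was most like ADA, of 11471 genes compared, were MAL (r = 0.97), RHCG (0.97), LOC717993 (0.96), SPINK7 (0.96) and ARG1 (0.96). Most of the spread of ADA over these samples is the gap between LE and TB on which it was chosen. Genes with a wide gap of the same direction therefore rank high. MAL, a membrane protein of stratified epithelium, is itself among the keratinocyte markers used here. Its median was 8782 units in LE and 20.8 in TB. RHCG, an ammonia transporter, had medians of 9170 and 127 units. ARG1, the arginase that releases urea, had medians of 2772 and 9.18 units. Over the 10 LE samples alone the list was a different one, ZSWIM4, GCNT3, RAB3A, SKIL and BHLHB5, with r between 0.89 and 0.97.

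ADA was also compared within TB, within LE and between sites, and no comparison reached an adjusted p of 0.05. The fits used limma on log2 intensity with animal as a block and Benjamini-Hochberg adjustment over all probe sets tested. The levels of ADA in LE and TB chose the list, so these comparisons are not independent of that choice. CV TB were at -0.92 ± 0.62 on the log2 scale relative to FG TB (adjusted p = 0.645), with 2 of 4 animals higher in CV. LE beside CV and beside FG differed by 0.05 ± 0.62 (adjusted p = 0.977). The change from LE to TB at the CV minus that at the FG was -0.97 ± 0.84 (adjusted p = 0.632). It is built from the very differences on which ADA was chosen. Top minus bottom of CV TB was 0.17 ± 0.80 (adjusted p = 0.934).

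For the other members the question was which enzymes of the purine cycle separate TB from the LE beside them. In CV TB, XDH, HPRT1 and AMPD2 were higher than in adjacent LE and AMPD1 and AMPD3 were lower, 5 of the 7 genes tested, whereas ADK and APRT did not pass. The count is a description only, because 3 of the 5 entered the test through the tissue in which they were high. AMPD1 reached 25 units in 5 of 10 LE and 0 of 10 whole TB samples, XDH in 1 and 9, and HPRT1 in 3 and 9, where 4 samples were needed. Across the array 17.3% of the 26176 probe sets tested were higher in CV TB and 18.0% were lower at the same threshold, and the median log2 change was 0.96 over the 7 genes against -0.08 over all probe sets. In FG TB, HPRT1 was higher and AMPD1 and APRT were lower, with 21.1% of all probe sets higher and 20.2% lower. The median change there was -0.29 over the 7 genes and 0.05 over all probe sets. The probe sets used for XDH and HPRT1 are in the study's own list of TB-associated genes, which was selected on these samples for higher signal in TB, so their direction is not independent evidence. The methods' t-test, paired by animal on linear intensities, called 0 of 7 at the CV and 1 of 7 at the FG, HPRT1, after Benjamini-Hochberg adjustment.

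**Figure D2:**
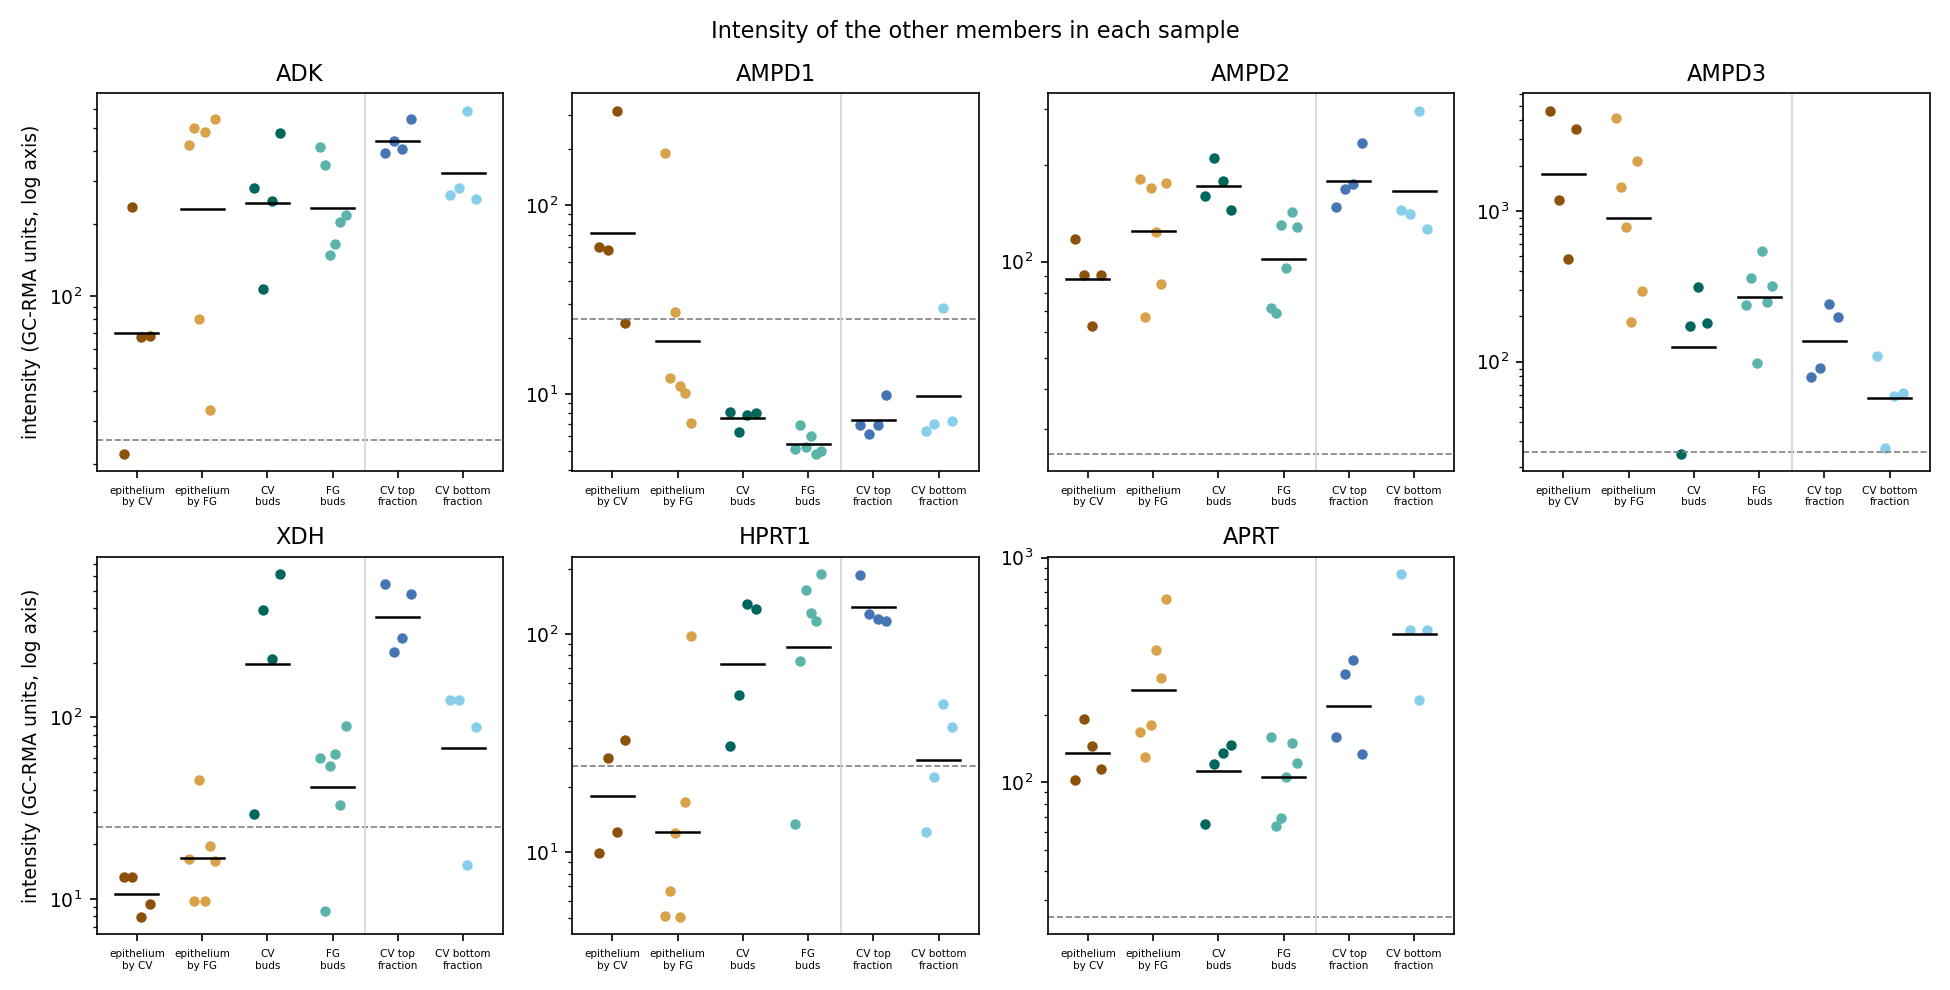
Intensity of the other 7 members (GC-RMA units, log axis, scaled separately for each gene) in each sample of the 6 groups. Points are samples, black bars geometric means and the dashed line 25 units. XDH in CV TB lies above LE beside CV in every sample, HPRT1 does so with some overlap, AMPD3 has its highest values in LE, and AMPD1 exceeds 25 units only in some LE samples and 1 bottom fraction.

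ADK, which competes with ADA for adenosine, did not show a difference in the way ADA did. Its brighter probe set read 22.0, 234.1, 67.6 and 68.2 units in LE beside CV and 280.4, 106.6, 249.2 and 476.7 in CV TB of animals 1, 3, 4 and 5. Animal 3 ran against the other 3, and the groups overlapped. The log2 change was 1.81 ± 0.88 (adjusted p = 0.123, n = 4 animals), and it passed only without animal 3, at 2.79 (adjusted p = 0.0403).

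In FG tissue ADK ranged from 33.3 to 544.9 units in LE (median 454.8) and from 148.2 to 416.1 in TB (median 209.9). The LE samples thus spanned the whole range of the TB samples, and the change was 0.01 ± 0.71 (adjusted p = 0.995). The second ADK probe set was higher in CV TB in 4 of 4 animals without overlap, 2.15 ± 0.87 (adjusted p = 0.0694), and at the FG its change was 1.79 ± 0.71 (adjusted p = 0.0571), so that neither probe set passed at either site. In the fractions ADK lay between 394.0 and 543.9 units in the top, and between 253.7 and 590.5 in the bottom.

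The 3 AMP deaminases went different ways. AMPD3, the isoform known from red blood cells, had its highest intensities in LE, where it varied strongly between animals. LE beside CV read 4632, 1187, 482.6 and 3519 units in animals 1, 3, 4 and 5, against 24.5, 173.5, 314.4 and 180.7 in CV TB. TB were lower in 4 of 4 animals without overlap, at least 13.9-fold, with a log2 change of -3.81 ± 1.01 (adjusted p = 0.00968).

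The AMPD3 call at the CV was lost without animal 1 (-2.56, adjusted p = 0.0519) or animal 5 (-3.65, adjusted p = 0.0579), the animals with the brightest LE. LE beside FG read 4134, 1443, 786.7, 182.9, 2159 and 293.7 units in animals 1 to 6, and the animals sampled at both sites, 1, 3, 4 and 5, stood in the same order in both. FG TB lay between 98.6 and 539.5 units (median 283.4) and overlapped LE. The change was -1.76 ± 0.82 (adjusted p = 0.101), with TB higher in 2 of 6 animals, and it passed without animal 4 (-2.42, adjusted p = 0.0294), the animal in which LE was dimmest.

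The 3 measured genes of a list of 6 erythroid markers had a mean log2 intensity of 3.28 to 4.40 in LE beside CV and 3.24 to 3.53 in CV TB. Both ranges of means lay under the log2 value of 25 units. Single genes did reach 25 units, 2 of 3 in LE beside CV of animal 4, 1 in that of animal 1 and 1 in CV TB of animal 3. In LE beside FG the highest erythroid mean, 6.69, was that of animal 2, which was not the brightest in AMPD3, and the part of red blood cells was not tested. At the CV the myeloid list was lower in TB, at 7.92 to 8.64 in LE and 4.46 to 6.10 in TB (6 of 8 genes measured). At the FG its ranges overlapped, 7.05 to 7.63 in LE and 5.77 to 7.42 in TB. The differentiated keratinocyte and Schwann cell lists were lower in CV TB as well. The part of any of these cells in the AMPD3 difference was not tested. The second AMPD3 probe set stayed under 25 units in all samples.

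AMPD1, the skeletal muscle isoform, was a dim transcript seen in some LE samples. It read 60.4, 58.1, 317.4 and 23.8 units in LE beside CV and 8.06, 6.35, 7.77 and 8.02 in CV TB. In LE beside FG only animals 1 and 3 reached 25 units, at 190.3 and 27.3, the lowest sample being at 7.09, and FG TB lay between 4.85 and 6.89. No whole TB sample reached 25 units. The probe set therefore entered the test only through LE and had to be lower in TB if it differed at all.

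The log2 change of AMPD1 was -3.26 ± 0.79 at the CV (adjusted p = 0.00594) and -1.81 ± 0.65 at the FG (adjusted p = 0.038), with TB lower in 4 of 4 and 6 of 6 animals. With values below 25 raised to 25 units the differences were at least 2.91-fold and at least 1.42-fold, and neither call held (adjusted p = 0.0873 and 0.484). The FG call was also lost with no filter on dim probe sets (adjusted p = 0.0513), with arrays centred on their median (0.0605) and without animal 5 (-1.96, adjusted p = 0.0666). Over the 6 measured genes of a list of 8 skeletal muscle markers, LE beside CV had a mean log2 intensity of 4.53 to 5.01. MYH2, MB and TNNC2 were under 25 units in all 4 of these samples. Of the 6 genes, 3 reached 25 units in animal 1 and 2 in each of animals 3, 4 and 5. The FG sample with the highest muscle mean, 9.65, was LE of animal 3, where AMPD1 read 27.3 units. The part of muscle in the AMPD1 signal was not tested.

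AMPD2, a widely expressed isoform, was higher in CV TB by a small step. LE beside CV read 117.4, 90.5, 62.9 and 91.0 units and CV TB 160.0, 211.6, 178.9 and 144.9, higher in 4 of 4 animals with no overlap. The difference was 1.95-fold, a log2 change of 0.96 ± 0.31 (adjusted p = 0.0281). It did not pass without animal 3 (0.88, adjusted p = 0.12) or animal 4 (0.78, adjusted p = 0.174), or with all 10 LE samples as 1 group (0.65, adjusted p = 0.0976). At the FG the groups overlapped, 67.1 to 181.3 units in LE (median 147.1) and 69.1 to 142.6 in TB (median 112.1), with a change of -0.29 ± 0.26 (adjusted p = 0.375).

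XDH, at the end of purine breakdown, showed the largest increase among the members. It was under 25 units in all LE samples beside CV, at 13.2, 13.2, 7.91 and 9.40 units in animals 1, 3, 4 and 5, and read 29.2, 388.9, 210.0 and 616.1 in CV TB. TB were higher in 4 of 4 animals without overlap, at least 7.83-fold with values below 25 raised to 25, and the log2 change was 4.20 ± 0.71 (adjusted p = 0.000444). CV TB of animal 1 was barely above 25 units. The call held in all 13 alternatives, refits of the model and another XDH probe set, with an adjusted p of 0.000112 to 0.00715. These alternatives use the same samples. The probe set reached 25 units in 1 LE and 9 whole TB samples, so it entered the test through TB. It is also in the study's TB-associated list, so its direction is not independent evidence.

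In FG TB the increase of XDH was smaller and did not pass. LE beside FG ranged from 9.68 to 45.0 units (median 16.3), with 1 of 6 samples at 25 units or more, and FG TB from 8.57 to 89.2 (median 57.1). The groups overlapped, 5 of 6 animals were higher in TB, and the change was 1.31 ± 0.58 (adjusted p = 0.0836). It passed with all 10 LE samples as 1 group (1.64, adjusted p = 0.0229).

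A second XDH probe set, named by the platform annotation and not taken from the study's list, gave the same order at the CV. It read 5.69 to 7.26 units in LE beside CV and 13.8, 136.1, 115.6 and 53.9 in CV TB, a log2 change of 3.16 ± 0.75 (adjusted p = 0.0051). It reached 25 units in 4 whole TB samples and 0 LE samples, so it passed the filter through TB alone and could only be called higher there. Its r with the first was 0.85 over the 28 samples. The remaining XDH probe set did not reach 25 units in any sample.

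HPRT1, which saves hypoxanthine and guanine, was higher in TB at both sites. LE beside CV read 9.96, 27.0, 12.4 and 32.9 units, of which 2 of 4 reached 25, and CV TB 30.7, 52.7, 137.1 and 130.3. TB were higher in 4 of 4 animals, although LE of animal 5 exceeded TB of animal 1. The difference was at least 2.69-fold and the log2 change 2.01 ± 0.56 (adjusted p = 0.0127), which was not called without animal 4 (1.52, adjusted p = 0.0734) or animal 5 (2.02, adjusted p = 0.0629), nor without the animal block (adjusted p = 0.0842) or with it as a random effect (adjusted p = 0.0701).

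At the FG the HPRT1 difference was firmer. LE ranged from 5.04 to 98.3 units (median 9.48), with only animal 6 above 25, and TB from 13.5 to 188.6 (median 120.4), with only animal 1 below. TB were higher in 6 of 6 animals, at least 3.08-fold. The log2 change of 2.82 ± 0.46 (adjusted p = 0.000314) was called in all 12 alternative settings of the same model, which refit the same samples. The probe set reached 25 units in 3 LE and 9 whole TB samples and is in the study's list. Its direction is therefore not independent evidence. LE of animal 6, the bright exception, also had the highest mean of the dividing cell markers in LE (6 of 8 genes measured). It was 7.00 against 3.73 to 4.76 in the other 5 samples beside FG. The fractions of CV TB, from other animals, ran the opposite way. Bottom fractions combined dividing cell means of 7.11 to 8.40 with HPRT1 values of 12.5 to 47.8 units. Top fractions combined means of 5.33 to 6.16 with 115.6 to 186.6 units. The part of dividing cells in the HPRT1 value was not tested. The second HPRT1 probe set stayed below 25 units throughout.

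APRT, which saves adenine, was lower in FG TB and was not called at the CV. LE beside FG read 167.5, 129.6, 180.1, 389.8, 292.6 and 657.5 units in animals 1 to 6, and FG TB 158.6, 64.1, 69.3, 105.2, 149.7 and 121.6. TB were lower in 6 of 6 animals, although the ranges overlapped, with a 2.45-fold difference and a log2 change of -1.29 ± 0.32 (adjusted p = 0.00598). The call held without animal 6, whose LE was brightest, and in all 13 alternatives, refits of the model and the second probe set. The second APRT probe set gave -1.42 ± 0.37 (adjusted p = 0.00833).

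At the CV, APRT read 102.8, 192.0, 145.6 and 114.1 units in LE and 65.1, 121.0, 135.3 and 147.1 in TB. The groups overlapped, and the change was -0.27 ± 0.39 (adjusted p = 0.632). The change at the CV minus that at the FG was 1.03 ± 0.51 (adjusted p = 0.363), so the sites were not shown to differ.

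**Figure D3:**
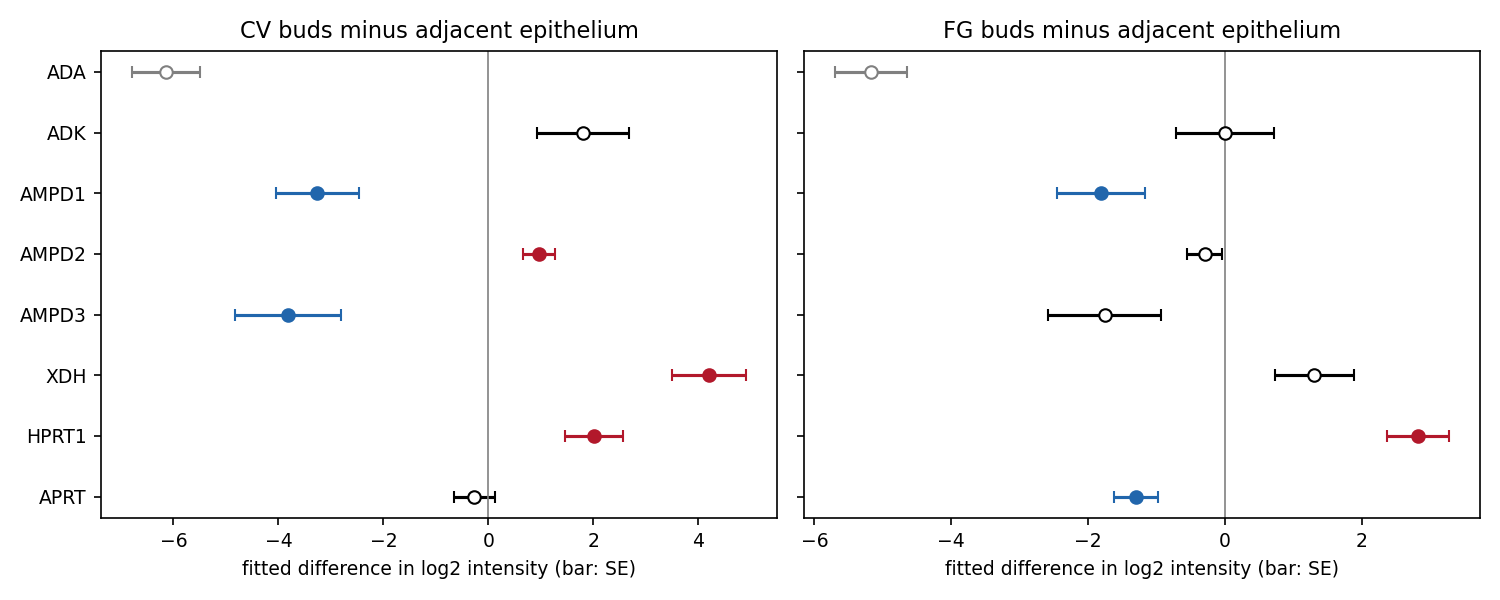
Fitted difference in log2 intensity between TB and the adjacent LE of the same site, with standard errors, for CV (left) and FG (right). Red marks a gene called higher in TB, blue one called lower, open black one not called, and open grey ADA, which was not tested because it chose the list. ADA has the largest difference at both sites, -6.14 and -5.17, followed at the CV by XDH at 4.20 and at the FG by HPRT1 at 2.82.

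Whether the members differ between papillae was asked within the same animals. In CV against FG TB none of the 8 genes was called, 0.378% of all probe sets being higher in CV and 0.493% lower. An unadjusted p below 0.05 was reached by 2 of 8, XDH and AMPD2, against 3042 of the 26176 probe sets tested. The methods' t-test called none after Benjamini-Hochberg adjustment. XDH was 1.99 ± 0.68 higher in CV TB on the log2 scale (adjusted p = 0.233, 3 of 4 animals) and was called without animal 1 (2.96, adjusted p = 0.0494). AMPD2 had a log2 change of 0.68 ± 0.30 (adjusted p = 0.398), with CV TB above FG TB in 4 of 4 animals.

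Between LE beside CV and LE beside FG none of the 8 members was called either. The background there was 0.970% of probe sets higher and 0.294% lower beside CV. AMPD1, at 1.66 ± 0.76 (adjusted p = 0.282), and APRT, at -0.96 ± 0.38 (adjusted p = 0.215), were the 2 of 8 with an unadjusted p below 0.05. Of all 26176 probe sets tested, 4474 were below that limit, so 2 of 8 is not read as a result about the members. Again the methods' t-test called none after adjustment. In the difference of the TB to LE change between sites, for which 0.271% of probe sets were called higher at the CV and 0.600% lower, none of the 8 was called. XDH (2.89 ± 0.91, adjusted p = 0.152) and AMPD2 (1.26 ± 0.40, adjusted p = 0.162) were the 2 with an unadjusted p below 0.05, against 3909 of the 26176 probe sets tested. XDH was called without animal 1 (4.02, adjusted p = 0.0478).

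Within CV TB the members were compared between the top fraction, toward the taste pore, and the bottom fraction in the same 4 animals. None of the 7 genes tested was called, against 1.68% of 21167 probe sets higher in the top and 1.46% lower. HPRT1, XDH and AMPD3, 3 of 7, had an unadjusted p below 0.05, against 4375 of the 21167 probe sets tested. The methods' t-test called none after adjustment. AMPD1 was too dim to test, with only the bottom fraction of animal 9 above 25 units, at 28.5.

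XDH and HPRT1 came nearest, and both were higher in the top in 4 of 4 animals without overlap. XDH read 545.0, 229.8, 273.3 and 479.8 units in the top of animals 7 to 10 and 124.6, 125.3, 15.5 and 88.6 in the bottom, a 4.67-fold difference with a log2 change of 2.40 ± 0.52 (adjusted p = 0.064). HPRT1 read 186.6, 123.7, 117.2 and 115.6 units in the top and 12.5, 22.1, 47.8 and 37.5 in the bottom, at least 4.09-fold, with a log2 change of 2.33 ± 0.46 (adjusted p = 0.0536). The type II taste cell markers, with means from 9.40 to 10.17 in top fractions against 8.31 to 9.14 in bottom fractions, moved the same way, as did the type III markers, at 7.89 to 8.26 and 7.01 to 7.54. The fibroblast markers went the opposite way, at 5.67 to 5.97 in top and 7.42 to 8.54 in bottom fractions (5 of 6 genes measured). The part of these cells in the XDH and HPRT1 differences was not tested.

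HPRT1 passed in the fractions without the animal block (adjusted p = 0.0202), with values raised to 25 (0.0365) or with arrays centred on their median (0.0499), and XDH did not pass in any of its 9 alternatives. The second XDH probe set was also higher in the top in 4 of 4 animals, 2.22 ± 0.50 (adjusted p = 0.0691). It reached 25 units in 4 of 4 top and 1 of 4 bottom samples, so it passed the filter through the top. Its direction is therefore not independent evidence. HPRT1 reached 25 units in 4 of 4 top and 2 of 4 bottom samples, and it too met the limit through the top. AMPD3 read 79.3, 90.6, 241.6 and 198.6 units in the top and 109.8, 26.8, 58.8 and 61.9 in the bottom, 1.25 ± 0.46 on the log2 scale (adjusted p = 0.2), with animal 7 opposed.

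APRT leaned the other way. It read 158.8, 302.7, 350.6 and 133.3 units in the top and 844.7, 476.9, 231.3 and 475.5 in the bottom, with animal 9 opposed to the other 3. With an adjusted p of 0.302, the change of -1.07 ± 0.51 on the log2 scale was not called. The dividing cell markers had means from 5.33 to 6.16 in top fractions against 7.11 to 8.40 in bottom fractions, and their part was not tested. ADK (0.45 ± 0.33, adjusted p = 0.507) and AMPD2 (0.11 ± 0.33, adjusted p = 0.895) did not pass either.

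**Figure D4:**
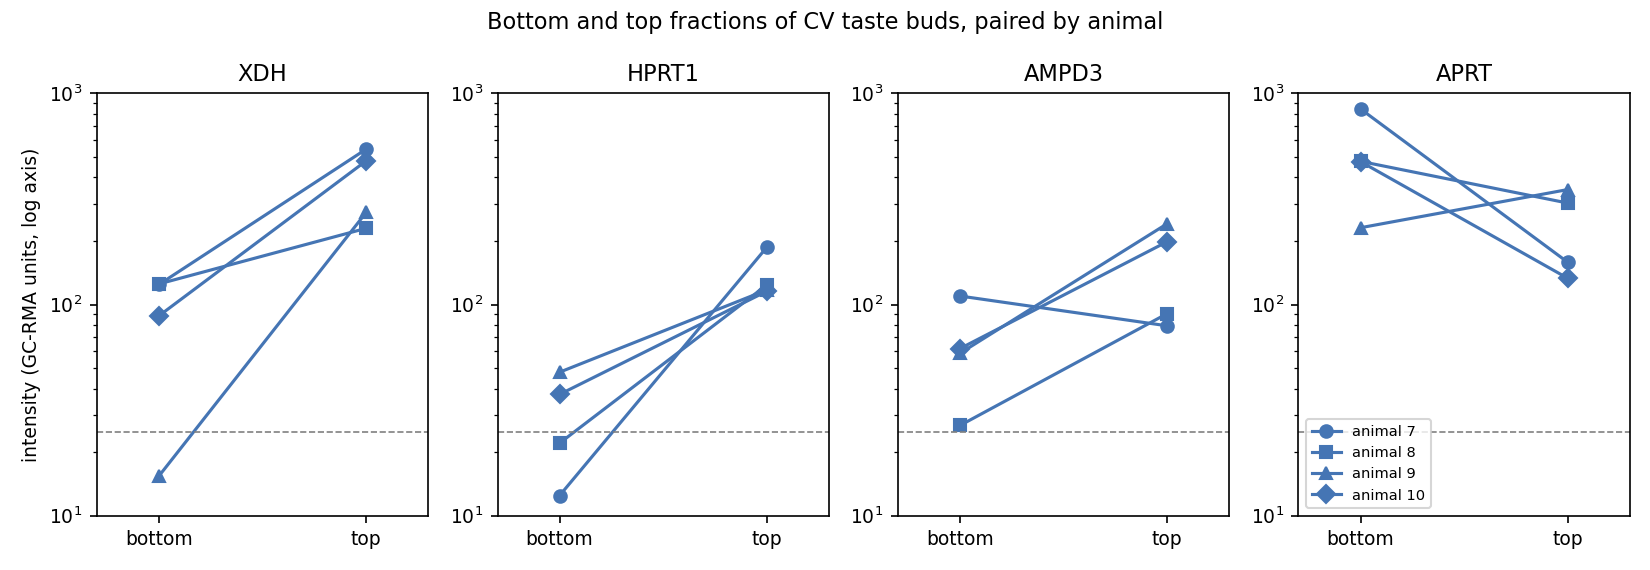
Intensity of XDH, HPRT1, AMPD3 and APRT (GC-RMA units, log axis) in the bottom and top fractions of CV TB, with a line and a marker shape for each of animals 7 to 10 and a dashed line at 25 units. XDH and HPRT1 are higher in the top in 4 of 4 animals, AMPD3 in 3 of 4, and APRT is lower in the top in 3 of 4, and none passed the adjusted test.

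The rest of the pathway was described from lists of adenosine receptors and transporters, enzymes that form or remove adenosine, other purine salvage and breakdown enzymes, purine synthesis and pyrimidine salvage. Their counts stand against the shares of all probe sets given above, 17.3% higher and 18.0% lower in CV TB and 21.1% and 20.2% in FG TB, and nothing is read from them as particular to a list. Of the adenosine receptors and nucleoside transporters, 5 of 7 genes with a probe set were tested, and at each site 2 were higher and 2 lower in TB. ADORA2B, the low-affinity A2B adenosine receptor, was at 142 ± 42.8 units (SD) in CV TB and 14.1 ± 3.39 in LE, at least 5.44-fold (log2 change 3.30 ± 0.43 SE, adjusted p = 5.67e-05), and at 205 ± 57.5 and 24.6 ± 16.8 at the FG (3.28 ± 0.35, adjusted p = 8.1e-06). It is in the study's TB-associated list and reached 25 units in 2 LE and 10 whole TB samples. ADORA2B thus entered the test through TB, and its direction is not independent evidence. SLC29A1, an equilibrative transporter that carries adenosine across the plasma membrane, was 2.74-fold higher in CV TB and 2.60-fold higher in FG TB.

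The remaining transporters were lower or not called. SLC28A3, a sodium-coupled nucleoside transporter, had log2 changes of -2.63 ± 0.56 at the CV and -1.70 ± 0.46 at the FG, with TB means of 7.34 and 11.6 units. It reached 25 units in 7 LE and 0 whole TB samples, so it entered the test through LE alone and could only be called lower. SLC29A3, an intracellular nucleoside transporter, was 3.08-fold lower in CV TB and 2.39-fold lower in FG TB. SLC29A4 was not called at either site (adjusted p = 0.685 and 0.466).

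Of 7 enzymes that form or remove adenosine, 3 were lower in TB at the CV, where the share of all probe sets was 18.0%, and 1 at the FG, where it was 20.2%, and none was higher. NT5E, the surface 5′-nucleotidase that makes adenosine from AMP, was at 748 ± 266 units (SD) in LE beside CV and 209 ± 220 in CV TB, lower in 3 of 4 animals (log2 change -2.32 ± 0.61 SE, adjusted p = 0.00889), and at the FG its change was -0.34 ± 0.50 (adjusted p = 0.607). ADA2, the secreted adenosine deaminase known from monocytes, had a log2 change of -2.17 ± 0.77 at the CV (adjusted p = 0.0413), and at the FG its change was 1.19 ± 0.63 (adjusted p = 0.144), with TB higher in 4 of 6 animals. AHCYL1, a relative of the enzyme that frees adenosine from S-adenosylhomocysteine, had -2.50 ± 0.71 (adjusted p = 0.0147). At the FG the called gene was NT5C1A, a cytosolic nucleotidase, at 13.5 ± 2.24 units in TB and 28.2 ± 6.36 in LE (adjusted p = 0.00438). It too passed the filter through LE alone, with 5 LE and 0 whole TB samples at 25 units or more.

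Other purine salvage and breakdown enzymes were higher in TB for 6 of 12 genes tested and lower for 1 at the CV, and for 4 and 0 at the FG (17.3% of all probe sets were higher at the CV and 21.1% at the FG). The median log2 change was 1.17 at the CV and 0.44 at the FG, against -0.08 and 0.05 over all probe sets. The 4 genes of this list that the study had itself listed as TB-associated were among those called at each site, so the count is not independent of that selection. PRTFDC1, AK5 and GMPR, 3 of these 4, reached 25 units in 1, 0 and 3 LE samples and in 10, 9 and 10 whole TB samples, and entered the test through TB. PRTFDC1, a homolog of HPRT1, rose by 4.57 ± 0.50 on the log2 scale at the CV and 3.18 ± 0.41 at the FG. NUDT16, an inosine diphosphatase, rose by 4.48 ± 0.71 and 3.15 ± 0.58, AK5, an adenylate kinase of brain, by 3.23 ± 0.54 and 4.50 ± 0.44, and GMPR, which turns GMP into IMP, by 1.69 ± 0.42 at the FG. AK1, not on the study's list, rose by 2.57 ± 0.56 at the CV.

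PNP, which acts right after ADA and splits inosine to hypoxanthine, was at 1106 ± 490 units in LE beside CV and 464 ± 261 in CV TB (log2 change -1.34 ± 0.46, adjusted p = 0.0352). It was lower in 3 of 4 animals. At the FG it was not called (0.44 ± 0.37, adjusted p = 0.364), with TB higher in 5 of 6 animals, and the difference between the sites did not pass (-1.77 ± 0.59, adjusted p = 0.173).

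In the purine synthesis list, 4 of 13 genes were higher and 2 lower in CV TB, and 5 and 1 in FG TB, beside 17.3% and 18.0% of all probe sets at the CV and 21.1% and 20.2% at the FG. PAICS (2.86 ± 0.84 at the CV and 2.69 ± 0.69 at the FG) and PPAT (2.38 ± 0.60 and 2.01 ± 0.49), enzymes of the pathway that builds IMP anew, and PRPSAP2 (2.77 ± 0.46 and 2.08 ± 0.38), a protein associated with phosphoribosyl pyrophosphate synthetase, were higher at both sites and are in the study's TB-associated list. PPAT reached 25 units in 2 LE and 9 whole TB samples, so it entered the test through TB. ADSS1, an adenylosuccinate synthase, rose by 1.95 ± 0.68 at the CV. GART, which acts in the same pathway as PPAT, rose by 1.38 ± 0.51 at the FG. PRPSAP1 was lower at both sites (-0.98 ± 0.28 and -0.68 ± 0.23), and ADSS2 at the CV (-0.88 ± 0.26).

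Of 10 pyrimidine salvage genes tested, 2 were higher and 3 lower in CV TB, and 1 and 3 in FG TB (17.3% and 18.0% of all probe sets at the CV, 21.1% and 20.2% at the FG). UPP1, the uridine phosphorylase, was at 2423 ± 653 units in LE beside CV and 45.1 ± 28.6 in CV TB, a 57.0-fold difference (log2 change -5.96 ± 0.64, adjusted p = 1.09e-05), and its change at the FG was -3.38 ± 0.53. CDA, the cytidine deaminase, carries out on cytidine the reaction that ADA carries out on adenosine.

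CDA was 6.66-fold lower in CV TB and 18.9-fold lower in FG TB (-4.24 ± 0.31, adjusted p = 1.57e-07), with TB lower in every animal at both sites. TYMP, the thymidine phosphorylase, was 3.43-fold and 3.30-fold lower. The probe set called higher at both sites is given as DUT in the study's list and as MED22 in the platform annotation, so its identity is uncertain. The differentiated keratinocyte list was lower in TB for 15 of 15 genes at each site, and its part in these differences was not tested.

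**Figure D5:**
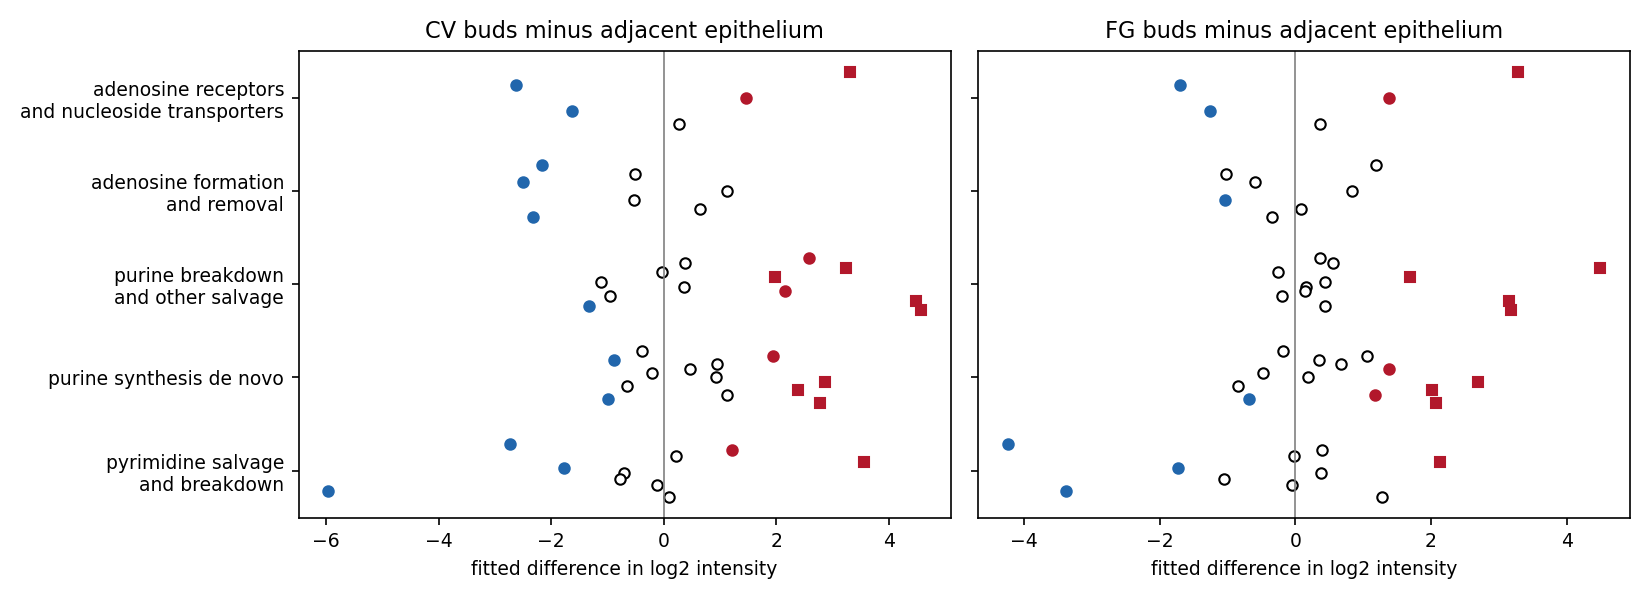
Fitted difference in log2 intensity between TB and adjacent LE for the tested genes of the 5 further pathway lists, at the CV (left) and FG (right). Filled red marks are genes called higher in TB, filled blue called lower, and open not called, and squares are probe sets in the study's own TB-associated list. The squares all lie to the right, and the lowest points are UPP1 at the CV (-5.96) and CDA at the FG (-4.24).

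Between sites and between fractions few pathway genes were called, and nothing is read from the counts as particular to the lists. Of the 47 genes tested, none was called between CV and FG TB or in the difference between sites. The shares of all probe sets were 0.378% higher and 0.493% lower between TB, and 0.271% and 0.600% in that difference. In LE, AK1 and ITPA, an inosine triphosphatase, were lower beside CV than beside FG, by -2.33 ± 0.53 (adjusted p = 0.0499) and -1.88 ± 0.34 (adjusted p = 0.018) on the log2 scale. They were 2 of 47 genes tested, beside 0.294% of all probe sets lower there, and none was higher (0.970% of all probe sets). ADORA2B (2.25 ± 0.41, adjusted p = 0.0461) and AK5 (2.11 ± 0.36, adjusted p = 0.0407) were higher in the top of CV TB, and TYMS, the thymidylate synthase of dividing cells, was lower (-3.99 ± 0.36, adjusted p = 0.0235). Each was in that direction in 4 of 4 animals without overlap. Of 45 genes tested between the fractions, 2 were thus higher and 1 lower, beside 1.68% and 1.46% of all probe sets. With any 1 of the 4 animals left out, no pathway gene was called between the fractions, and over the whole array at most 1 probe set was.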

How the data were processed

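RNA from LCM samples was extracted, amplified and hybridized by the authors, who deposited GC-RMA intensities (background corrected, quantile normalized, linear scale, all 28 arrays together; the version is not given in the sources used here). Both the members and the gene lists were chosen with earlier results of these data known.

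Probe sets were named from the study's TB-associated list where it gave a name (1997 probe sets), and otherwise from the platform annotation, in which 24956 probe sets had 1 symbol, 361 several and 26707 none. A gene was represented by its probe set in that list or, failing that, by the brightest of its probe sets, on average over the log2 values of the 28 samples. All members were named, and of each further list up to 4 genes per comparison with the largest called change. Genes most like ADA were the 5 with the highest Pearson r.

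Log2 intensities were fitted with limma 3.58.1 in R 4.3.3, for probe sets at 25 units or more in at least 4 samples of the fit, with animal as a block. The first array set (20 samples, 4 groups) and the second (8 samples) were fitted apart. Calls were made at an adjusted p of at most 0.05 (Benjamini-Hochberg over all probe sets tested), so fold changes of dim genes depend on the background correction. Folds are ratios of geometric means with values under 25 raised to 25, and "at least" marks those in which the dimmer group had values raised and the ratio of arithmetic means was no smaller. The script was tested on simulated data.

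Animal numbers in the labels pair the samples. The mean correlation of same-animal deviations was 0.05 to 0.12, against -0.04 to -0.01 between animals. The number of arrays limits the precision, and no 2 arrays were identical. Alternatives were no block or a random block, values raised to 25, no filter, median centring, leaving out each animal, LE as 1 group, other probe sets and the methods' t-test.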

Additional observations from a re-analysis of the deposited data

Results flagged for a closer look

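A sample was set apart where its gap to the nearest other sample of its group, on the log2 scale, exceeded Dixon's critical share of the group's whole range. Chance sets apart about 1 in 20 groups, and 7 such values in 48 groups of the members' representative probe sets were found. The 48 groups reuse the same 28 samples for each gene, so they are not independent.

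The bottom fraction of CV TB of animal 9 accounted for 4 of the 7. It was high for ADK (590.5 units, a gap of 0.873 of the range), AMPD1 (28.5 units, 0.922) and AMPD2 (297.0 units, 0.844), and low for XDH (15.5 units, 0.834). The top fraction of animal 7 was high for HPRT1 (186.6 units, 0.857). Among whole TB, CV TB of animal 3 was low for AMPD1 (6.35 units, 0.848), where all values were far under 25 units, and FG TB of animal 1 was low for HPRT1 (13.5 units, 0.653).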

How the results depend on the processing

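Of the members other than ADA, 5 were called at the CV and 3 at the FG. At the CV the count was 3 to 5 with 1 animal left out (3 without animal 1, animal 4 or animal 5), and 0 by the methods' t-test, both unadjusted with 5-fold and after adjustment. AMPD1 no longer passed the filter without animal 1 or animal 3. At the FG it was 5 with all LE as 1 group, and by the methods' t-test 0 unadjusted with 5-fold and 1 after adjustment. CV against FG TB and the difference between sites went from 0 to 0 to 1 with 1 animal left out (1 without animal 1, XDH). The fractions gave 1 instead of 0 with no replicate block, with values raised to 25 and with centred arrays (HPRT1 each time), and 0 with any animal left out. Without the replicate block, which pairs samples of an animal, HPRT1 also lost its call at the CV, and no other member's call changed.

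Changes of sign occurred in uncalled values and in the ADA probe set plotted last. On that probe set ADA had log2 changes of 2.42 at the CV, 0.59 at the FG, 0.46 for CV against FG TB, -1.37 between LE sites, 1.83 between sites and -0.53 for top minus bottom, and the last was -0.55 on the second probe set. Other probe sets turned APRT at the CV (0.033) and ADK between LE sites (0.27). With 1 animal left out, the ranges that crossed 0 were -0.51 to 0.32 for ADK at the FG, -0.059 to 0.20 for ADA between LE sites, and for top minus bottom -0.66 to 0.82 for ADA and -0.16 to 0.39 for AMPD2. For CV against FG TB they were -0.0085 to 0.77 for ADK, -0.0069 to 0.34 for AMPD1, -0.14 to 0.64 for HPRT1 and -0.17 to 0.44 for APRT. In that comparison HPRT1 also turned with no replicate block (-0.25), a random block (-0.22) and values raised to 25 (-0.16), and AMPD1 with values raised (-0.13). The cause was not tested.

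Centring arrays on their medians moved the median change of all probe sets from 0.05 to 0.22 at the FG and from 0.02 to 0.13 between LE sites. With centring no member changed sign, and AMPD1 at the FG lost its call (adjusted p = 0.0605). Counts over all probe sets between the fractions went from 665 to 0 to 1 with any animal left out, 66 with no filter, 1033 without the block and 0 by the methods' t-test after adjustment. Without 1 animal they ran from 45 to 227 for CV against FG TB (228 with all), 58 to 347 between LE sites (331) and 12 to 201 between sites (228). A random block gave 368, 575 and 345 there, and values raised to 25 gave 589 between LE sites and 349 between sites. The methods' t-test gave 2713 unadjusted with 5-fold and 1051 adjusted at the CV (9242 in the model), 2316 and 4351 at the FG (10795), 102 and 0 for CV against FG TB, 172 and 2 between LE sites and 180 unadjusted between the fractions. Among the other pathway genes the same test called 9 and 1 at the CV and 6 and 7 at the FG. The 25-unit limit leaves AMPD1 in TB, XDH and most HPRT1 values in LE as bounds only.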
